A study of Homo sapiens with 12 samples.

Results

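Ketone body and fatty acid oxidation genes were examined in 4 human lung cancer cell lines, in parental cells and in tumor-initiating cells (TICs). The 8 genes were chosen by name from the pathway: OXCT1, ACAT1, BDH1, BDH2, CPT1A, CPT2, ACADM and PDK4. OXCT1 was singled out because its level was lower in TICs than in parental cells in earlier results from these same libraries, so the comparison of TICs with parental cells is given for the 8 genes as a description, without a test. All 8 were found among the 22506 genes of the count table, and all 8 passed the filter on low counts that left 14008 genes for testing. RNA sequencing gave 12 libraries, 1 for each of the lines H1703, H1299, CHAGO and CALU in each of 3 states. The first state is the parental cells, which the labels call adherent. The second is TICs of the same line, the fraction credited with starting tumors, and the third is TICs with a knockdown of PRKCI, the gene of protein kinase C iota. The labels state neither how TICs were grown nor how PRKCI was knocked down, and no label says whether the libraries of a state came from separate cultures. The 4 lines served as the replicates of a state (n = 4), so each SD of a group mean below is the spread between lines. Standard errors and intervals of fitted differences come from a model with terms for state and line. They measure the spread left after both terms, not the spread between lines.

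Ketone bodies are small fuel molecules that the liver makes from fatty acids. Other tissues use them by turning 3-hydroxybutyrate into acetoacetate (BDH1), loading acetoacetate with coenzyme A (OXCT1) and splitting the product into acetyl-CoA (ACAT1). Long-chain fatty acids reach the mitochondrial matrix through the carnitine shuttle (CPT1A on the outer membrane, CPT2 on the inner) and are then shortened by beta-oxidation, in which ACADM opens the cycle for medium-chain acyl-CoA. PDK4 inhibits the pyruvate dehydrogenase complex and so favors fatty acids over glucose as fuel.

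The libraries held between 21165030 and 91763055 counted reads, with the deeper libraries in CHAGO and CALU. PRKCI, the targeted gene, lay between 23.2 and 58.1 CPM (reads relative to library size, scaled with TMM factors for library composition) in the knockdown TICs and between 199 and 608 CPM in TICs, without overlap. The title of the series calls the lines squamous, and 6 squamous markers varied widely: KRT5 had 0 reads in 6 of the 12 libraries and at most 2.52 CPM, while TP63 had 0 reads in 4 and reached 45.2 CPM in CALU TICs. Their summed level was higher in TICs than in parental cells in each line, at 3.6 against 0 CPM in H1703, 38.8 against 8.09 CPM in H1299, 69.8 against 25.6 CPM in CHAGO and 45.4 against 5.03 CPM in CALU. The sum rested on different genes by line, with SOX2 at 38.8 CPM in H1299 TICs and TP63 at 45.2 CPM in CALU TICs. Some markers went the other way. SOX2 was 3.06-fold lower in CHAGO TICs than in parental CHAGO, and KRT14 went from 1.96 CPM in parental CALU to 0 in CALU TICs. After knockdown the sum was 125.3 CPM in CHAGO and 1.04 to 6.22 CPM in the other lines. Of the leukocyte markers, CD3E had 0 reads in every library and PTPRC and LYZ stayed at or under 0.704 CPM. CD68, which cells other than leukocytes also express, was higher in TICs than in parental cells in each line, at 97.1 against 0.090 CPM in CHAGO, 271 against 218 CPM in CALU, 530.4 against 264 CPM in H1299 and 647 against 338 CPM in H1703. The squamous sum and CD68 thus differed between TICs and parental cells in the same lines as OXCT1, and their part in its values was not tested. In bulk RNA a smaller share of cells with a transcript and less of it per cell cannot be told apart.

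The promoters of OXCT1, ACAT1 and ACADM are shown because these 3 genes had at least 603 reads in every library and were lower in TICs in each line. Each sequence is the 250 bases before a RefSeq transcript start in build GRCh38.p14, 5′ to 3′ on the gene's strand, and capitals mark matches to the motifs listed after them.
OXCT1, chr5:41870426-41870675, minus strand: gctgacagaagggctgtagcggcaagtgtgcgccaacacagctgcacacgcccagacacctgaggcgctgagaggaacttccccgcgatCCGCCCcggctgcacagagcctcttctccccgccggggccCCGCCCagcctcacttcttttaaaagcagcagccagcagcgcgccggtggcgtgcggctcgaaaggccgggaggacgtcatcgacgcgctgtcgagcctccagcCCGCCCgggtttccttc
ACAT1, chr11:108121317-108121566, plus strand: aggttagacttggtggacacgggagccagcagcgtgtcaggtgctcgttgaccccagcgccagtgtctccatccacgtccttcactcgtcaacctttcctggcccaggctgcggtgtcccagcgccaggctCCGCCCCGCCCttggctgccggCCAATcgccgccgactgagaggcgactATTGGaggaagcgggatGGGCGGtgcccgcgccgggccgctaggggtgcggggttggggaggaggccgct
ACADM, chr1:75724459-75724708, plus strand: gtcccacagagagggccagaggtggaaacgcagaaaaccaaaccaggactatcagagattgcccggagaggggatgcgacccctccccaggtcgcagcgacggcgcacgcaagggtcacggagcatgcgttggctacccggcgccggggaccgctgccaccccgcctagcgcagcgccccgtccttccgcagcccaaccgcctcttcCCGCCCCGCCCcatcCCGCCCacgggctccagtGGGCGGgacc
The motif GGGCGG, the GC box, matched 3 times in the OXCT1 window, 3 times in the ACAT1 window and 4 times in the ACADM window, counting both strands. The ACAT1 window precedes a transcript start inside the gene record, not the start of the gene. A pair of its matches shares a base in each of the ACAT1 and ACADM windows. It occurs in 42.6% of 35116 RefSeq promoter windows of this length. CCAAT matched 2 times in ACAT1 (32.0% of windows) and in neither other window. No match was found in the 3 windows for AGGTCA, the nuclear receptor half-site (12.1% of windows), CACGTG (6.34%), TGACGTCA (1.65%), TGTTTAC (2.98%) or the palindromic NRF-1 site (1.03%). The windows were 68.0%, 69.2% and 70.8% G or C. These letters are a description of the windows and not evidence of a bound factor. OXCT1 and ACAT1 each have another window before a different transcript start, not printed here. Those were 34.8% G or C for OXCT1 and 73.6% for ACAT1, and neither held a match to any of these motifs.

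OXCT1 (chr5:41730065-41870425, minus strand, GRCh38.p14) encodes succinyl-CoA:3-oxoacid CoA transferase, the enzyme that commits ketone bodies to oxidation. In parental cells its level was 178 CPM in H1703, 79.1 CPM in H1299, 186 CPM in CHAGO and 92.8 CPM in CALU. In TICs it was 92.3 CPM in H1703, 27.4 CPM in H1299, 72.6 CPM in CHAGO and 49.6 CPM in CALU. In knockdown TICs it was 104 CPM in H1703, 30.2 CPM in H1299, 82.3 CPM in CHAGO and 50.2 CPM in CALU. Both TIC libraries lay below the parental library in each line, although the states overlap when lines are pooled. The group means were 134 ± 55.9 CPM in parental cells, 60.5 ± 28.1 CPM in TICs and 66.6 ± 32.7 CPM in knockdown TICs (SD, n = 4 each). The fitted log2 fold change between TICs and parental cells was −1.19, or 2.28-fold lower, and it ranged over lines from 1.87-fold lower in CALU to 2.89-fold lower in H1299. Between knockdown TICs and parental cells, a comparison that shares the parental libraries, it was −1.07. OXCT1 overlaps OXCT1-AS1 on the opposite strand in the GENCODE 29 annotation.

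ACAT1 (chr11:108116705-108147603, plus strand), the mitochondrial acetoacetyl-CoA thiolase, makes acetyl-CoA in ketone body use and also acts in isoleucine breakdown. Its parental levels were 78.5 CPM in H1703, 46.3 CPM in H1299, 68.4 CPM in CHAGO and 55.0 CPM in CALU. In TICs they were 27.1, 38.5, 52.8 and 22.2 CPM in the same order of lines, lower than parental in each. The difference was uneven: TICs were 2.89-fold lower in H1703 and 2.48-fold lower in CALU, but 1.20-fold lower in H1299 and 1.30-fold lower in CHAGO. In knockdown TICs the levels were 31.9, 53.4, 51.9 and 22.5 CPM, so that H1299 stood above its parental value. The fitted log2 fold change between TICs and parental cells was −0.91.

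BDH1 (chr3:197509783-197573343, minus strand), the mitochondrial 3-hydroxybutyrate dehydrogenase, had most of its reads in CHAGO and CALU. It had 984 reads in parental CHAGO, 812 in CHAGO TICs and 345 after knockdown, or 14.8, 9.93 and 4.56 CPM. In CALU it had 199, 87 and 351 reads, or 2.297, 1.05 and 4.95 CPM. H1299 had 19, 6 and 0 reads and H1703 had 1, 0 and 0. Its parental level was above the TIC level in each line, but in H1703 that rests on 1 read. After knockdown the direction split, with CHAGO lower than its TICs and CALU higher.

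BDH2 (chr4:103077592-103099834, minus strand) encodes a cytosolic short-chain dehydrogenase that is also known for making a mammalian siderophore. Its reads went in opposite directions between lines. In CALU it went from 66 reads in parental cells to 673 in TICs, or from 0.762 to 8.13 CPM, while H1703 went from 42 reads to 0, at least 11.3-fold lower with 3 reads as the limit of detection in that library. H1299 had 2.21 CPM in parental cells, 4.16 CPM in TICs and 11.96 CPM after knockdown, and CHAGO had 7.26, 4.33 and 2.95 CPM. No common direction was seen over the 4 lines.

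**Figure D1:**
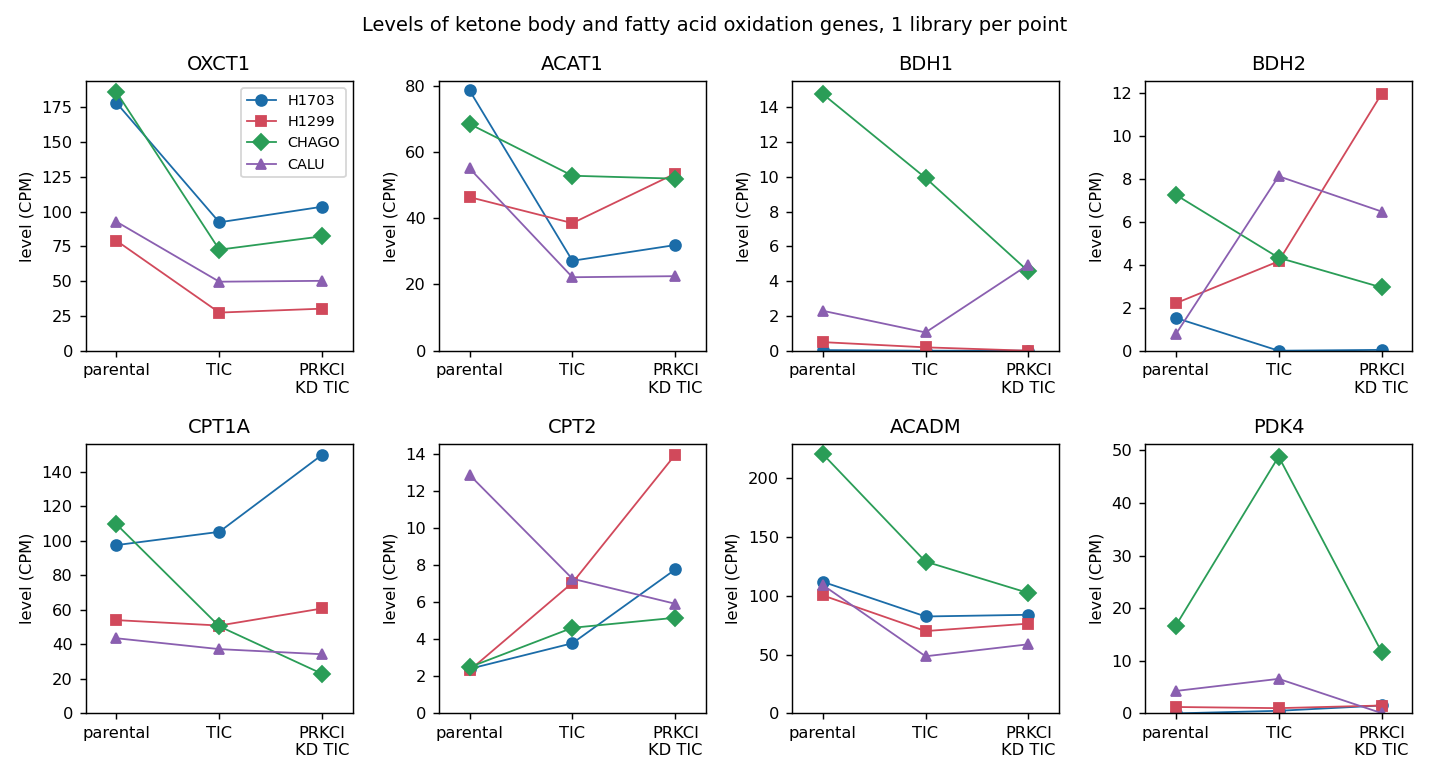
Level of each of the 8 genes in CPM (vertical axis, from 0, with its own scale per gene) in the parental, TIC and PRKCI knockdown TIC library of each line, 1 point per library and 1 colored line per cell line. OXCT1 and ACADM are lower in TICs than in parental cells in each line and stay below the parental level after knockdown, while BDH2, CPT2 and PDK4 cross between lines.

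CPT1A (chr11:68754620-68844277, minus strand) is the malonyl-CoA-sensitive entry step of the carnitine shuttle. It stood at 97.4 CPM in parental H1703, 54.0 CPM in H1299, 109.6 CPM in CHAGO and 43.5 CPM in CALU. TICs had 105.1, 50.9, 50.4 and 37.2 CPM, and knockdown TICs 149.8, 60.8, 22.9 and 34.3 CPM. CHAGO was 2.17-fold lower in TICs than in parental cells and a further 2.20-fold lower after knockdown. H1703 was 1.42-fold higher in knockdown TICs than in TICs, so the lines do not share a direction.

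CPT2 (chr1:53196824-53214197, plus strand), which remakes acyl-CoA inside the mitochondrion, had much lower counts than CPT1A. TICs were higher than parental cells in 3 lines, at 3.78 against 2.40 CPM in H1703, 7.04 against 2.31 CPM in H1299 and 4.61 against 2.49 CPM in CHAGO. In CALU they were lower, at 7.26 against 12.85 CPM, the highest parental level. Knockdown TICs had 7.76, 13.9, 5.15 and 5.90 CPM in the order H1703, H1299, CHAGO and CALU. CPT2 overlaps C1orf123 on the opposite strand in the GENCODE 29 annotation, and the sources used here do not say whether counting used strand, so its reads are uncertain in origin.

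ACADM (chr1:75724709-75763679, plus strand), the medium-chain acyl-CoA dehydrogenase, was lower in TICs than in parental cells in each line. Its parental levels were 112 CPM in H1703, 100.4 CPM in H1299, 221 CPM in CHAGO and 109 CPM in CALU. TICs had 82.4, 70.02, 129 and 48.6 CPM, and knockdown TICs 83.9, 76.4, 102.4 and 58.8 CPM in the same order. Each of the 8 TIC and knockdown libraries lay below the parental library of its line. The fitted log2 fold change between TICs and parental cells was −0.73, or 1.66-fold lower, with the least difference in H1703 (1.36-fold) and the most in CALU (2.25-fold). ACADM overlaps RABGGTB, which had 233846 reads over all libraries, and SNORD45C on the same strand in the GENCODE 29 annotation. Counting by strand would not separate them, so reads from a shared stretch are uncertain in origin here too.

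PDK4 (chr7:95583499-95596516, minus strand) was mainly a CHAGO transcript. CHAGO had 16.7 CPM in parental cells, 48.8 CPM in TICs and 11.7 CPM after knockdown, 2.93-fold higher in TICs than in parental cells and then 4.17-fold lower. CALU had 369 reads in parental cells, 544 in TICs and 4 after knockdown, 116.5-fold lower than in TICs. H1299 held 1.001 to 1.501 CPM in its 3 libraries, and H1703 had 0, 11 and 39 reads. The knockdown value was thus below the TIC value in CHAGO and CALU and above it in H1703 and H1299.

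In the count of direction, 4 of the 8 genes (OXCT1, ACAT1, BDH1 and ACADM) were lower in TICs than in parental cells in each of the 4 lines. Of all 14008 tested genes, 8.97% were lower in each line in that comparison. In knockdown TICs against parental cells, 2 of the 8 (OXCT1 and ACADM) were lower in each line, and 9.11% of all tested genes were. The medians of the fitted log2 fold changes were −0.82 over the 8 genes and −0.02 over all tested genes. Because OXCT1 was chosen on this contrast, nothing is read from these counts. Per kilobase of annotated exon, the order of the mean levels in parental cells was ACADM (49.6 ± 20.8 CPM per kb), OXCT1 (34.8 ± 14.5), ACAT1 (21.5 ± 4.94), CPT1A (12.1 ± 5.14), BDH2 (2.09 ± 2.10), CPT2 (1.58 ± 1.64), PDK4 (1.55 ± 2.13) and BDH1 (1.05 ± 1.66), each SD over n = 4 lines. ACADM and OXCT1, neighbours in that order, overlap in their ranges over the lines (36.7 to 80.7 against 20.6 to 48.3), as do OXCT1 and ACAT1. The 4 lowest lie within 1 SD of each other. In TICs the mean of OXCT1 was 15.7 ± 7.31 CPM per kb, between ACADM (30.2 ± 12.5) and ACAT1 (12.2 ± 4.72), so the order of the first 4 was the same.

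Knockdown TICs were compared with TICs for the dependence on PRKCI that the series title names. This contrast was not used to choose the genes, but it shares the TIC libraries with the comparison that singled out OXCT1. The OXCT1 value here is thus not independent of that choice. In edgeR's quasi-likelihood test 0 of the 8 genes had an adjusted p under 0.05, against 0.0143% of all tested genes (2 of 14008). By unadjusted p the count was also 0 of 8, against 4.28% of all genes, and it was 0 in DESeq2 (0.0785% of all genes) and in limma voom. The number of all genes that limma voom called is given at the end, with the other ways of processing. For OXCT1 the fit gave a log2 difference of 0.12, with a standard error of 0.19 and a 95% interval from −0.30 to 0.55 (edgeR adjusted p = 0.987). The knockdown library was the higher in 4 of 4 lines, by 1.01-fold in CALU to 1.13-fold in CHAGO. Of all tested genes, 7.23% were higher in each line. For ACADM it was 0.02 with a 95% interval from −0.43 to 0.47 (edgeR adjusted p = 0.998, higher in 3 of 4 lines). ACAT1 gave 0.19, with an interval from −0.50 to 0.87 (edgeR adjusted p = 0.987, higher in 3 of 4 lines).

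For the other 5 genes the intervals were wider than for OXCT1, ACADM and ACAT1. No margin for likeness was set, so this comparison shows neither a difference nor a likeness for any of these genes, OXCT1, ACADM and ACAT1 included. CPT1A had a log2 fold change of −0.0049 with a 95% interval from −0.86 to 0.85, and CPT2 had 0.60 with an interval from −0.83 to 2.02. BDH1 (−2.56 to 2.35), BDH2 (−2.65 to 3.23) and PDK4 (−3.80 to 2.76) were the least certain. The sign for PDK4 turned from −0.52 to 0.24 without CHAGO and to 0.29 without CALU.

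**Figure D2:**
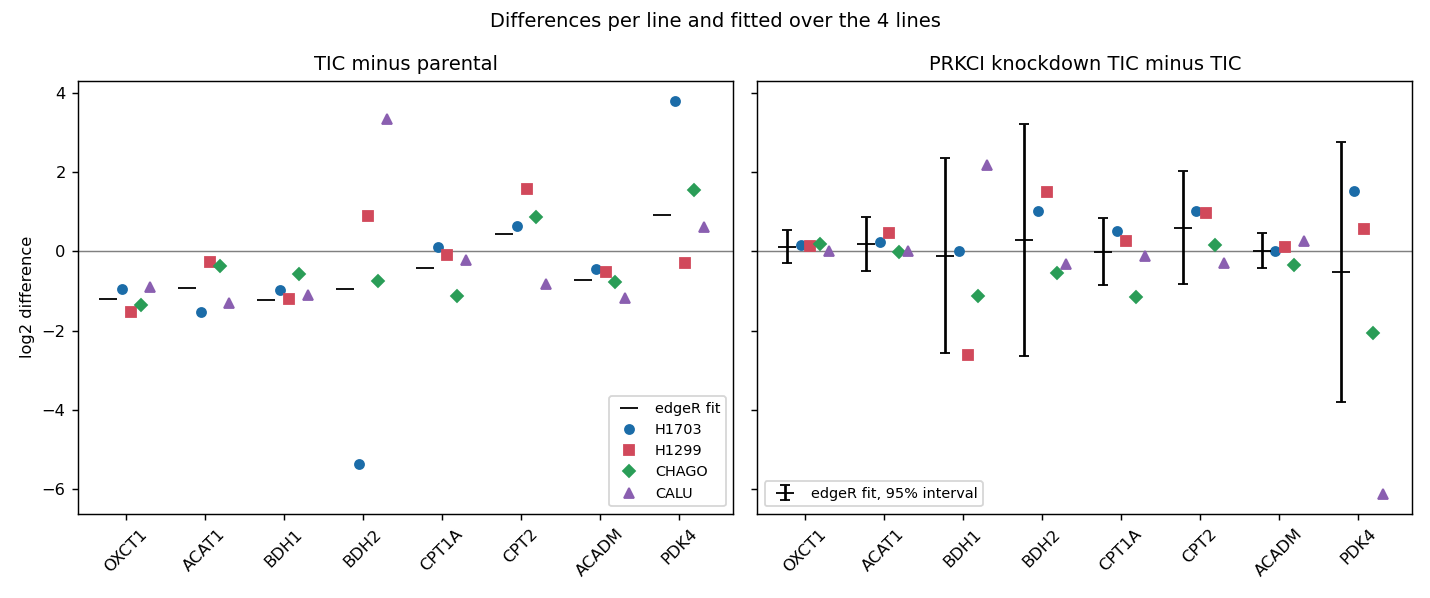
Log2 difference (vertical axis) of each of the 8 genes per line (colored points, on log2 CPM values with 2 as prior count) and as fitted by edgeR over the 4 lines (black bars), for TICs minus parental cells (left, with no interval since OXCT1 was chosen on it) and knockdown TICs minus TICs (right, with 95% intervals). After knockdown the OXCT1 points lie between 0.02 and 0.18, while those of PDK4 spread from −6.13 to 1.53.

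The lines themselves were compared with a test of the line terms over all 12 libraries, in which the 3 states of a line serve as its replicates. Of the 8 genes 4 differed between lines in edgeR, and 45.4% of all tested genes did, so the share is near the background. They were OXCT1 (adjusted p = 0.00161), BDH1 (0.00415), ACADM (0.0159) and CPT1A (0.0470). PDK4 (0.0585), ACAT1 (0.202), BDH2 (0.313) and CPT2 (0.376) did not pass. OXCT1 and BDH1 passed without each line in turn. ACADM did not pass without CHAGO (0.377) or without CALU (0.0526), and CPT1A did not pass without H1703 (0.538) or without CALU (0.144).

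For OXCT1 the line order was H1703, CHAGO, CALU and H1299 in TICs and in knockdown TICs, with CHAGO just above H1703 in parental cells. H1703 and CHAGO did not differ detectably, with a log2 difference of 0.21 and a 95% interval from −0.29 to 0.70 (edgeR adjusted p = 0.524). In that pair 27.3% of all genes were called. CHAGO stood above CALU by 0.75 (interval 0.26 to 1.25, edgeR adjusted p = 0.0354, higher in 3 of 3 states, 23.3% of genes called). CALU and H1299 missed the threshold, at −0.60 for H1299 minus CALU (interval −1.10 to −0.10, edgeR adjusted p = 0.0958, 16% of genes called). H1703, the line with the highest mean, was 2.95-fold above H1299, the lowest (edgeR adjusted p = 0.00189, 16.7% of genes called). For BDH1 the CHAGO level was 48.8-fold above that of H1299 in the fit (edgeR adjusted p = 0.0182, 23.2% of genes called). These pairs of lines were compared after the levels had been seen.

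A list of 64 further genes of these pathways gives the setting, of which 59 were tested. In TICs against parental cells none of the 59 passed in edgeR, DESeq2 or limma voom, against 0.0286% of all genes in edgeR and 4.02% in DESeq2. For limma voom the number called over all genes is given at the end. An unadjusted p under 0.05 was found for 7 of 59 (11.9%), 4 higher (5.73% of all tested genes were) and 3 lower (6.06%), against 11.8% in all. Their median log2 fold change was 0.01, and 28 of 59 were lower (47.5%), against 51.3% of all tested genes. The other pathway genes as a whole were thus near the background.

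Mitochondrial beta-oxidation genes other than ACADM were lower in TICs for 11 of 18 (61.1%, against 51.3% of all tested genes), with a median log2 fold change of −0.27. The 3 with an unadjusted p under 0.05 were ACADSB, the short and branched-chain acyl-CoA dehydrogenase (−1.29), HADH, which oxidizes hydroxyacyl-CoA (−1.07), and DECR1, an auxiliary enzyme for unsaturated chains named after its values were seen (−0.61). ACADSB lay between 31.2 and 41.3 CPM in the parental libraries and between 10.6 and 18.5 CPM in the TIC libraries. It was lower in each of the 4 lines, as 8.97% of all tested genes were, and its edgeR adjusted p was 0.329. It was named for a small p in this same comparison. The trifunctional protein subunit HADHA was the other way, at 299 ± 51.9 CPM in parental cells and 349 ± 33.2 CPM in TICs (SD, n = 4, log2 fold change 0.24). In knockdown TICs against the same parental libraries, 16 of these 18 genes were lower and 2 higher (88.9% lower, against 52.9% of all tested genes). None of them passed in edgeR, against 0.0357% of all genes, and this count was taken up after the values were seen.

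Genes of peroxisomal oxidation, a pathway for very long chains, were higher in TICs for 5 of 8 (median log2 fold change 0.65), and none passed. Of all tested genes, 48.7% were higher. ACAA1, the peroxisomal thiolase, had 1.67, and ACOX3, an acyl-CoA oxidase, had 1.24, each higher in 4 of 4 lines, as 8.32% of all tested genes were. Both have few reads, with ACAA1 at most 3.36 CPM in parental cells. Transcriptional regulators were higher for 6 of 8 (median 0.54), against the same 48.7% of all tested genes. PPARA, the nuclear receptor that drives fatty acid oxidation genes in liver, had a log2 fold change of 1.24 and was higher in 4 of 4 lines, most in H1299 (from 5.10 to 21.1 CPM) and CALU (from 18.7 to 79.3 CPM). FOXO3 had 0.58 and was higher in 4 of 4 lines. The share of 8.32% of all tested genes applies to PPARA and FOXO3 too.

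Of the genes around pyruvate dehydrogenase and malonyl-CoA, 6 of 11 were lower in TICs (median −0.26), against 51.3% of all tested genes. PDK3, a kinase of the same family as PDK4, was higher in TICs in 4 of 4 lines (log2 fold change 0.91, from 53.6 ± 12.9 to 115 ± 66.3 CPM, SD, n = 4), and PDHB, a subunit of the complex, was lower in 4 of 4 (−0.44). Neither passed. Among carnitine shuttle and acyl-CoA synthetase genes, 4 of 8 were higher, against 48.7% of all tested genes. ACSL4, which activates polyunsaturated fatty acids, had the smallest p of the group, with a log2 fold change of 0.48, higher in 3 of 4 lines. ACSL5, another acyl-CoA synthetase, had the highest log2 fold change (1.42), which rests on CALU, at 28.2 CPM in parental cells and 127.9 CPM in TICs, while no other parental or TIC library exceeded 0.775 CPM. For other ketone body genes, 4 of 6 were higher, against the same 48.7%. The ketone body and lactate transporter SLC16A1 (MCT1), named after its values were seen, had 170 ± 44.0 CPM in parental cells and 171 ± 47.8 CPM in TICs (SD, n = 4).

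After knockdown none of the 59 genes passed in edgeR, DESeq2 or limma voom, against 0.0143% of all genes in edgeR and 0.0785% in DESeq2. For limma voom the numbers called over all genes, here and against parental cells, are given at the end. Of the 59, 1 had an unadjusted p under 0.05 (1.69%, higher, against 2.08% of all genes that were higher). That gene was ACSL4, at 266 ± 204 CPM in TICs and 411 ± 366 CPM in knockdown TICs (SD, n = 4). Its log2 fold change was 0.54, and it was higher in 4 of 4 lines, as 7.23% of all tested genes were. ACSL4 was the 1 gene of the 59 that DESeq2 and limma voom called in knockdown TICs against parental cells, where DESeq2 called 3.06% of all genes and edgeR called none of the 59 and 0.0357% of all genes. PPARGC1A, a coactivator of oxidative metabolism, had the most negative value after knockdown among the 59 (−2.93). CALU had 27.0 CPM in TICs and 0.789 CPM after knockdown, and CHAGO had 10.01 and 0.872 CPM. It was at 17.9 and 19.0 CPM in H1299, and had 0 reads in H1703.

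**Figure D3:**
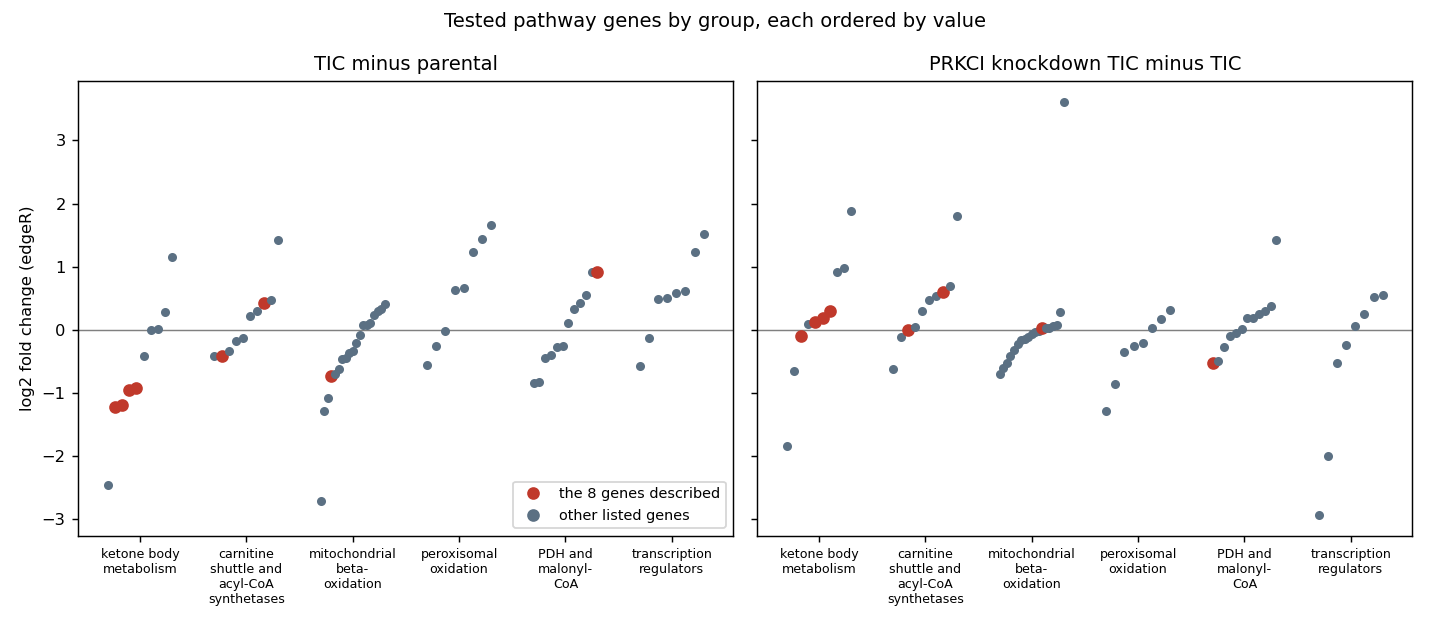
Log2 fold change from edgeR (vertical axis) of the 67 tested genes of the pathway, in 6 groups (horizontal axis, points ordered by value within a group), for TICs minus parental cells (left) and knockdown TICs minus TICs (right), with the 8 genes described in red. On the left 5 of 8 peroxisomal genes and 6 of 8 regulators lie above 0, with medians of 0.65 and 0.54. Of all tested genes, 48.7% lie above 0 there, and every group has points on both sides of 0.

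The genes whose levels most resembled OXCT1 over the 12 libraries were sought among 8747 genes with a mean of at least 2 on the log2 CPM scale. They were RPL36A, a ribosomal protein gene (Pearson r = 0.96), EIF5A (0.92), a translation factor, and PLRG1 (0.90), a splicing factor. With the mean of each line removed they were THOC1 (0.96), of the mRNA export complex TREX, PLCB4 (0.96), a phospholipase C, and LRPPRC (0.95), which stabilizes mitochondrial mRNA. Among those of the 8 genes that reached this mean level, ACADM had r = 0.86 with OXCT1 after removal of line means, ACAT1 0.64, CPT1A 0.41 and CPT2 −0.59. BDH1, BDH2 and PDK4 did not reach it. These r values are descriptions over 12 libraries that share lines and states. With line means removed, they take in the lower TIC level for which OXCT1 was singled out. Reads of RPL36A and EIF5A may be shared with near copies elsewhere in the genome.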

How the data were processed

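RNA sequencing was done on 12 libraries, and the labels' protocols name Qiagen RNeasy and NuGen kits. CASAVA 1.4, TopHat 1.4, HTSeq 0.5.3p3 and genome build hg19 are named in the submitters' processing notes, without a role. The authors deposited raw counts per gene, and a second table with a mode-normalized score equal to the count times 1 factor per library, per a comparison of both tables (within 1 for at least 99.996% of the values of a library). The CALU knockdown column lacks a letter of the sample's title.

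The 8 genes, the lists and the tests were chosen with earlier results of these data known. Counts were filtered (filterByExpr), TMM-scaled and fitted with edgeR 4.0.16 quasi-likelihood (robust) in R 4.3.3, with terms for state and line, 6 residual degrees of freedom and Benjamini-Hochberg adjustment over 14008 genes. The line named in the labels pairs the libraries: after state means were removed, libraries of the same line correlated across genes at 0.591 to 0.845 and those of different lines and states at −0.461 to −0.0708. Standard errors were derived from each F statistic and its log2 fold change. Limits of 3 reads cover counting error only. Levels per kb used the merged exons of protein-coding transcripts in GENCODE 29 (GRCh38), which may differ from the authors' gene models. Named genes were the 8, up to 2 of smallest p per list and test, and the 3 most like OXCT1 by each measure. The model was tested on simulated data. DESeq2 1.42.0 and limma 3.58.1 were alternatives. The design text also lists a knockdown in parental cells, not analysed here. Pairs of lines were compared after the data were seen.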

Additional observations from a re-analysis of the deposited data

Results flagged for a closer look

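Of 24 groups of 4 libraries (8 genes in 3 states), 6 held a library far from the other 3 by the 95% limit of Dixon's test. That limit assumes normal values, while CPM values were used and several genes have few reads. The 3 states of a gene also share the same lines. The 6 are thus a description, with no rate by chance set beside them. In 5 of the 6 the library was from CHAGO. BDH1 was at 14.76 CPM in parental CHAGO against at most 2.297 CPM in the other parental lines, and at 9.93 CPM in CHAGO TICs against at most 1.05 CPM. ACADM was at 220.8 CPM in parental CHAGO against at most 112 CPM. PDK4 was at 48.8 CPM in CHAGO TICs against at most 6.57 CPM, and at 11.7 CPM in CHAGO knockdown TICs against at most 1.51 CPM. CPT2 was at 12.85 CPM in parental CALU against at most 2.49 CPM in the other parental lines.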

How the results depend on the processing

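OXCT1, ACAT1, BDH1, ACADM and CPT1A stayed lower in TICs than in parental cells under the 12 alternatives run, and CPT2 and PDK4 stayed higher. BDH2 was lower in 9 and higher in 3. These fits reuse the libraries in which OXCT1 was singled out. OXCT1 ranged from −1.29 to −1.05 in TICs against parental cells and from 0.06 to 0.16 after knockdown. The number of genes called over all genes moved more. For TICs against parental cells it was 4 and became 0 with no replicate block, 509 in DESeq2, 170 in limma voom, 0 with the mode-normalized values (added after seeing the data) and 0 to 0 without each line in turn. For knockdown TICs against TICs it was 2 and became 0 with no replicate block, 0 with a filter of 1 CPM in 4 libraries, 11 in DESeq2, 11 in limma voom, 0 with the mode-normalized values and 0 to 1 without each line. For knockdown TICs against parental cells it was 5 and became 8 with DESeq2 size factors, 3 with the filter of 1 CPM, 0 with no replicate block, 395 in DESeq2, 152 in limma voom, 0 with the mode-normalized values and 0 to 2 without each line. The cause was not tested, except that a fit without 1 line has fewer libraries.

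Signs turned for genes with few reads or values near 0. For BDH2 in TICs against parental cells the value became 0.50 with no replicate block, 0.86 in limma voom and 0.89 without H1703, and in knockdown TICs against parental cells 0.86 with no replicate block, 0.89 in limma voom, 0.17 with the mode-normalized values and 1.23 without H1703. For PDK4 in the latter comparison it became −0.58 with no replicate block, −0.85 in limma voom, −0.0903 with the mode-normalized values and −1.11 without H1703, and after knockdown 0.24 to 0.29 without CHAGO or CALU. After knockdown BDH1 became 0.69 without H1299 and 0.45 without CHAGO, and BDH2 became −0.30 without H1299. CPT1A became 0.0064 with no low-count filter, 0.000493 with the filter of 1 CPM, 0.14 with no replicate block, 0.24 without CHAGO and 0.0357 without CALU, and 0.17 without CHAGO against parental cells. ACADM became −0.0388 with no replicate block, −0.0279 in limma voom, −0.046 with the mode-normalized values and −0.0495 without CALU. The mode-normalized scale put the median of all genes at 0.11 in TICs against parental cells, where it was −0.02. Depth was lowest in H1703 and H1299, so low counts of BDH1, BDH2 and PDK4 there are the least certain.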
